A study of Mus musculus with 4 samples.

Results

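The nuclear genome encodes most subunits of the mitochondrial respiratory chain and ATP synthase, and 85 of the 38697 genes in the authors' comparison belong to this group. They are the protein-coding genes whose symbols match the naming pattern of Nduf subunits (complex I, 38 genes), Sdha to Sdhd (complex II, 4 genes), Uqcr subunits (complex III, 8 genes), nuclear Cox subunits (complex IV, 18 genes) and Atp5 subunits (complex V, 17 genes). The pattern was applied to names, not to measured values. It also takes a few genes that are not canonical subunits, among them Cox7a2l, a supercomplex assembly factor, Atp5s, a coupling factor, and Atp5sl, an assembly protein of the complex I membrane arm. Ndufa4, named after complex I, encodes a subunit now assigned to complex IV, but is counted in complex I throughout. Cyc1, a complex III subunit with another name pattern, is described below with the related genes.

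RNA came from group 2 innate lymphoid cells (ILC2s), lymphocytes of the lung that produce IL-5 and IL-13, sorted from C57BL/6 mice after bleomycin, a drug that injures the lung. The KO group was R5/+Nrp1f/f and the WT group R5/+, with 2 libraries each and 3 to 4 mice pooled per library. Both groups carry R5, known in the field as a reporter allele at Il5 that also expresses Cre, so the WT mice also carry Cre at that locus, and deletion in KO mice is limited to cells in which Il5 has been active. Both groups received bleomycin. Age and sex are not given in the labels, and nothing in them says whether the pools were handled together.

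Complex I oxidises NADH, complex II oxidises succinate, complex III passes electrons from ubiquinol to cytochrome c, complex IV reduces oxygen, and complex V makes ATP from the proton gradient. Complexes I, III, IV and V each combine nuclear with mitochondrially encoded subunits, while complex II is wholly nuclear. In lymphocytes this machinery supplies ATP and redox balance in resting and activated cells, and ILC2s are known to use fatty acid oxidation and mitochondrial respiration alongside glycolysis. The transcription factors NRF1, GABP and YY1 are textbook regulators of respiratory chain genes.

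Of the 85 genes, 67 matched a RefSeq promoter window in build GRCm38.p6, which spans 250 bases before to 50 after an annotated start. They had 72 windows in all. The NRF1 word (GCGCA, any base, then GCGC), read on both strands like the other words, was found in 18 of the 72 windows (25%), against 4.6% of all 32851 windows of this length and 11% of the windows of protein-coding genes with a baseMean of at least 1000. The GABP word CCGGAAG was present in 16 of the 72 (22.2%), against 8.86% of all windows and 18.3% of those of abundant genes. The YY1 word AANATGGCG was present in 10 (13.9%), against 2.38% and 5.78%. A match describes these letters alone and is not a binding site. The words were searched without regard to overlap with each other. Atp5h, Cox6a1, Ndufb4 and Ndufs5 are genes with a single window and the NRF1 word in their longest stretch before the start that holds no annotated exon. Their stretches are shown because they carry the word in subunits of complexes V, IV and I. The word stands in capitals, 5' to 3' on the strand of the gene, all 4 being on the minus strand. They lie at chr11:115419963-115420127, chr5:115348982-115349129, chr16:37654454-37654618 and chr4:123718203-123718436 (RefSeq, GRCm38.p6).
Atp5h: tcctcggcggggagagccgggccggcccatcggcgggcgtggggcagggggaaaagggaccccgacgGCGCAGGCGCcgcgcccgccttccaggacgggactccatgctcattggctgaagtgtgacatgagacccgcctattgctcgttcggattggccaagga
Cox6a1: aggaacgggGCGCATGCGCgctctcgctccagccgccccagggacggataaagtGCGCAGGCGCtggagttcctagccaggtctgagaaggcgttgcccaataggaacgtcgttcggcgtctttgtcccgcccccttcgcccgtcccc
Ndufb4: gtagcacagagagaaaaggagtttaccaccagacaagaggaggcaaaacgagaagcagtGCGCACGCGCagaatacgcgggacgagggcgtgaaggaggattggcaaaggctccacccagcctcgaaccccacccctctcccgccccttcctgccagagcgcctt
Ndufs5: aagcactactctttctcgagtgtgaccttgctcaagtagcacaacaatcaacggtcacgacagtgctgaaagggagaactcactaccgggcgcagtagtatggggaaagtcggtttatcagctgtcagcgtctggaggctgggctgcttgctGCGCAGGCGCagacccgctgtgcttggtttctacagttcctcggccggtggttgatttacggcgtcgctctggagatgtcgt
In Cox6a1 the word occurs at 2 positions, which begin 162 and 117 bases before the start.

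The authors deposited a comparison of the genotypes, and a value in each of the 4 libraries is not given here because no column of values per library is headed by a sample label. A level is therefore the deposited baseMean, a mean normalized count over the libraries, and a genotype mean is derived from baseMean and the fold change, taking both genotypes with equal weight. Depth of the single libraries is unknown here; baseMean over all genes sums to 12974883. Positive log2 values mean higher in KO. The table does not name its numerator, and this reading follows its title, which puts WT first. With it Nrp1 was lower in KO, at -1.18 ± 0.21 (SE) on the log2 scale with an adjusted p of 0.000127 by the authors' deposited table. All 12 ILC2 markers were detected, from a baseMean of 187 for Il13 to 43668 for Id2. Their log2 values were negative in 12 of 12, with a median of -0.335, and 6 were lower at an unadjusted p under 0.05. Of the 12, 10 had a baseMean of at least 1000. Among all tested genes in that range 92.9% were negative, the median was -0.251 and 21.6% were lower at an unadjusted p under 0.05. With that median subtracted, 4 markers were positive and 8 negative, with a median of -0.083. The part of these marker values in the respiratory chain values was not tested.

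The respiratory chain genes were abundant, with a median baseMean of 1000.4 over the 80 genes that have an adjusted p, against 85.3 over all 19193 such genes. The remaining 5, all tissue isoforms of complex IV, had a baseMean under 6.71 and no adjusted p. Together the 85 genes made up 0.859% of all normalized counts, of which complex V gave 0.364%, complex I 0.211%, complex IV 0.14%, complex III 0.0743% and complex II 0.0699%. Atp5b, the catalytic beta subunit of ATP synthase, had a baseMean of 16492, Atp5a1, the alpha subunit, 7704 and Sdha, the flavoprotein of complex II, 5254, the 3 highest counts of the group without regard to length.

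Levels of different genes can be compared only per length. Divided by the exonic length of the gene in GENCODE M21, the median baseMean per kb was 471 in complex I, 887 in complex II, 1103 in complex III, 985 in complex IV and 622 in complex V. The range within a complex was wider than the range between complexes. In complex I it ran from 15.7 per kb for Ndufb2 to 2362 for Ndufa1, both accessory subunits of the membrane arm. Ndufb2, with a baseMean of 88.4, was divided by 5628 bp of exons and Ndufa1, with 990, by 419 bp. Within complex II, Sdha stood at 1273 per kb, the membrane anchor Sdhd at 1035, the iron-sulfur subunit Sdhb at 740 and the anchor Sdhc at 271. Among complex III genes, the core proteins Uqcrc1 and Uqcrc2 had 467 and 472 per kb and the Rieske protein Uqcrfs1 1157. Per length of the longest coding transcript Uqcrc1 had 1168 and Uqcrc2 635, beside 1157 for Uqcrfs1, and in complex II Sdhb had 1451, above Sdhd at 1035. In complex V, Atp5b had 3892 per kb, Atp5a1 2457 and the gamma subunit Atp5c1 2147. The 3 genes for the c subunit of the rotor differed, with 988 per kb for Atp5g3, 779 for Atp5g2 and 222 for Atp5g1. Per length of the longest coding transcript these were 2980, 1733 and 231. Atp5g1 was divided by 4912 bp of exons or 4715 bp of transcript, against at most 2181 and 753 bp for Atp5g3 and Atp5g2. Without division their baseMean values were 2154 for Atp5g3, 1305 for Atp5g2 and 1090 for Atp5g1. Which transcripts were expressed is not known here, so the low level of Atp5g1 per length is uncertain. The order of the complexes also depended on the length used. With the length of the longest coding transcript complex V came first, and without division by length complex II did, while complex I stayed last in both and complex IV second. SDs over libraries are not known for these levels, so neighbours in the order cannot be separated.

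**Figure D1:**
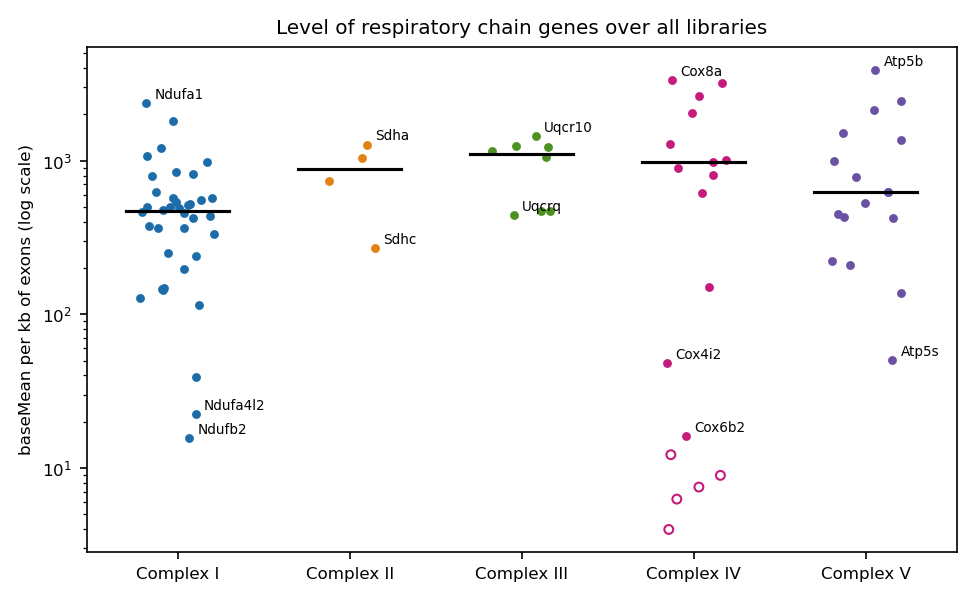
Level of each respiratory chain gene as baseMean per kb of exons on a log axis, by complex, with filled points for genes with an adjusted p, open points for the 5 without and a black bar at the median of the filled points. Complex IV divides into common subunits from 150 to 3332 per kb and tissue isoforms at 48 per kb or below.

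No respiratory chain gene passed the test between the genotypes. At an adjusted p under 0.05 by the authors' deposited table, 0 of the 80 were higher and 0 lower in KO, where 0.453% of all tested genes were called higher and 0.099% lower. At an unadjusted p under 0.05 the same table gave 0 higher and 7 lower, with 9.62% higher and 3.95% lower over all tested genes. Of the 40 with a baseMean of at least 1000, 6 (15%) were lower at that p, against 21.6% of all tested genes in that range. The smallest adjusted p of the group was 0.177, that of Atp5b, by the authors' deposited table. No other tool could be run.

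The log2 fold changes were alike in sign. A negative value was found for 76 of 80 genes, against 46% of all tested genes, and the median was -0.248 against 0.076. Abundant genes as a whole had similar values. Among all tested genes at or above a baseMean of 1000, 92.9% were negative and the median was -0.251, and the 40 respiratory chain genes in that range had a median of -0.246, with 40 of 40 negative. For a baseMean from 50 to 1000, 35 of 37 respiratory chain genes were negative, with a median of -0.254, against 63.1% and -0.109 over all genes in that range. The 37 were more abundant, with a median baseMean of 639 against 253 for all genes in that range. With log2 values centred on genes of at least 1000, 42 respiratory chain genes were positive and 38 negative, with a median of 0.004. With the abundance trend removed, 28 were positive and 52 negative, with a median of -0.025, where all tested genes split into 9589 and 9567. Of the 37 respiratory chain genes with a baseMean from 50 to 1000, 9 were then positive and 28 negative, with a median of -0.054.

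**Figure D2:**
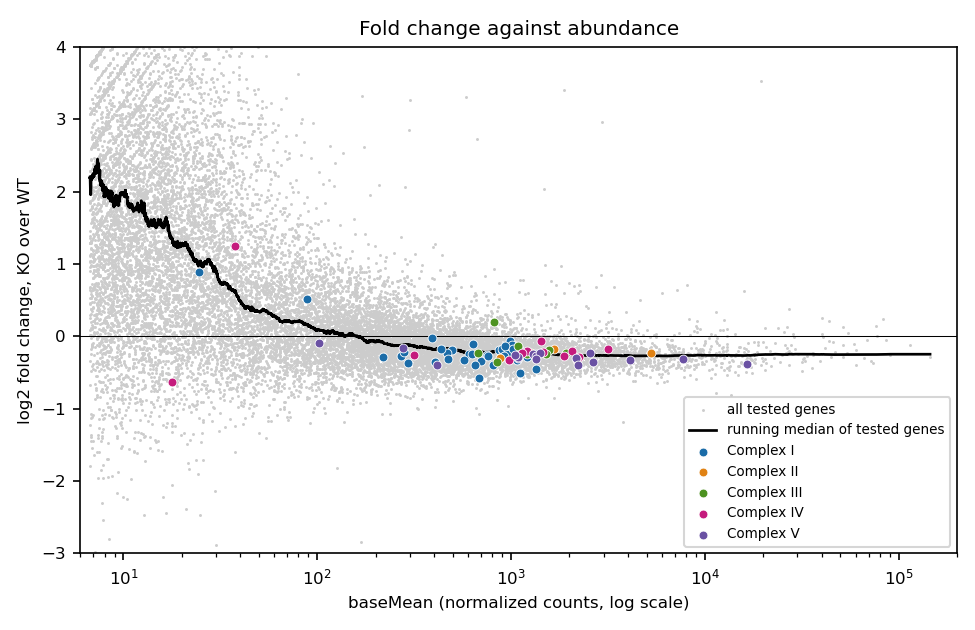
Log2 fold change of KO over WT against baseMean (log axis) for all tested genes in grey, with their running median over neighbouring genes in black and respiratory chain genes coloured by complex. The axis stops at -3 and 4, which leaves out 946 grey points, and most coloured points lie beside the black line.

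The SEs of these values give an approximate range for each change, with 2 pools per genotype. A 95% interval was taken as the log2 value and its SE under a normal approximation. It lay within 2-fold in either direction for 72 of the 80 genes (35.6% of all tested genes, and 97.3% of those with a baseMean of at least 1000). The intervals hold for the deposited normalization and do not include the shift that centring makes. The SE followed abundance, with a Spearman rho of -0.97 between baseMean and SE over the 77 respiratory chain genes at or above a baseMean of 50. This is a description across genes that share the same libraries. Over these 77 genes the log2 values had an interquartile range of 0.119, narrower than their median SE of 0.230. All genes with a baseMean of at least 50 had an interquartile range of 0.375 and a median SE of 0.310.

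**Figure D3:**
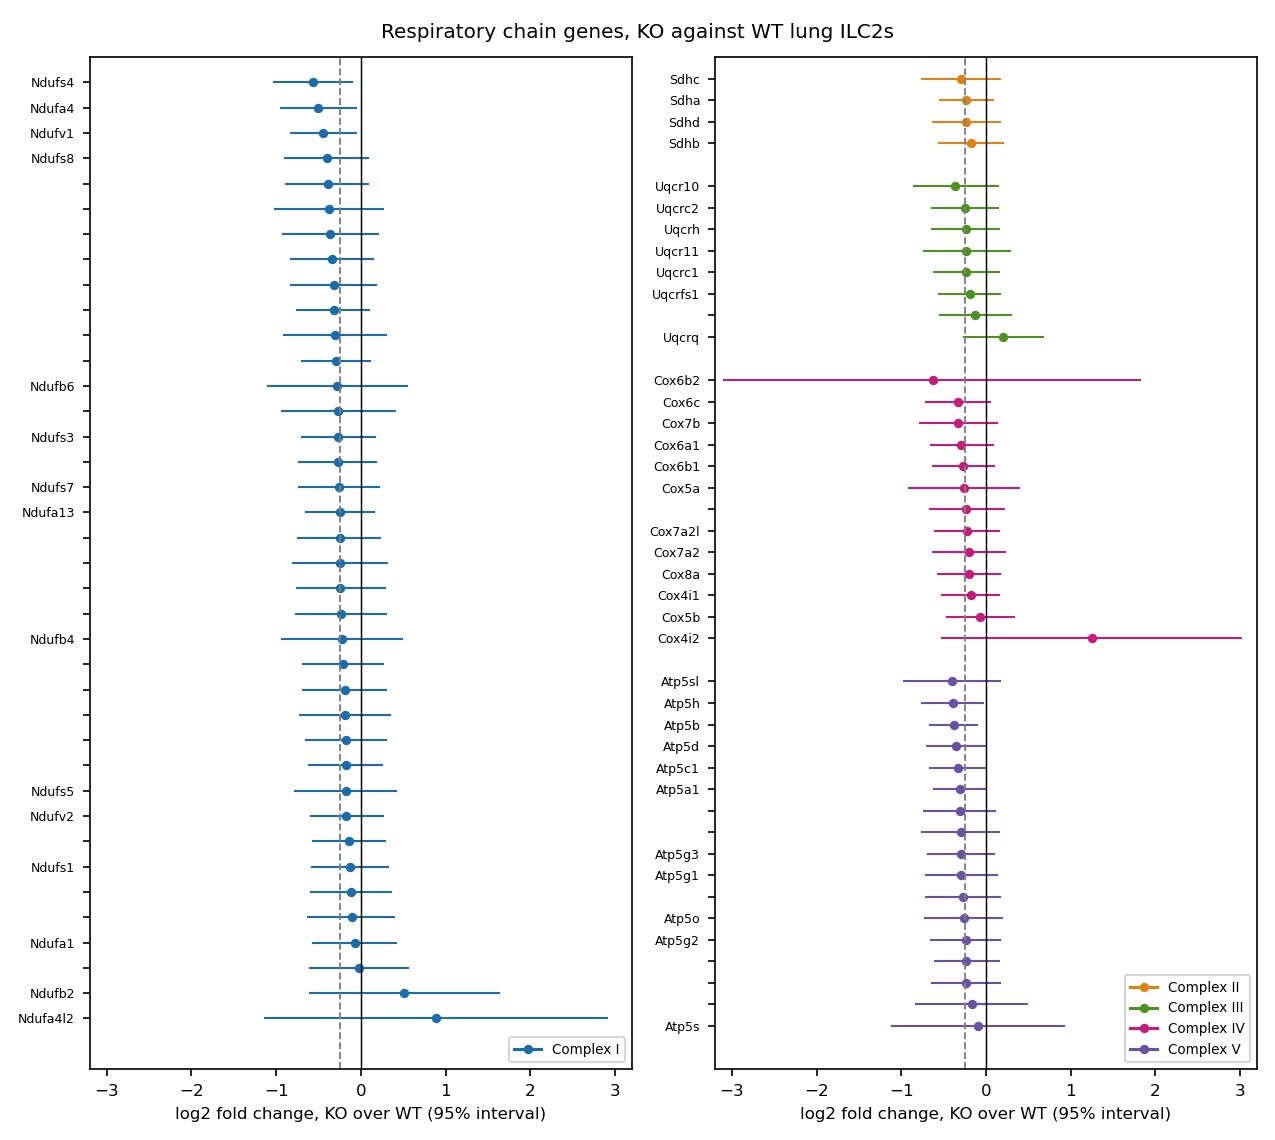
Log2 fold change of KO over WT with its 95% interval for the 80 respiratory chain genes with an adjusted p, complex I on the left and complexes II to V on the right, with labels for genes named in the text. The solid line marks 0 and the dashed line -0.25, the median of tested genes at or above a baseMean of 1000, which all 80 intervals cover.

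In complex I, 36 of 38 genes were negative, with a median of -0.249, and 3 had an unadjusted p under 0.05. Ndufs4, an accessory subunit of the NADH-binding arm (ENSMUSG00000021764, chr13:114287795-114388258, minus strand), had a mean of 551 normalized counts in KO and 816 in WT. Its log2 fold change of -0.57 ± 0.23 was the largest fall in value among genes of the group with a baseMean of at least 50, and its adjusted p was 0.227 by the authors' deposited table. Ndufv1, the FMN-binding subunit where NADH is oxidised (ENSMUSG00000037916, chr19:4007384-4012806, minus strand), had 1144 in KO and 1558 in WT, at -0.45 ± 0.19 (adjusted p = 0.262 by the authors' deposited table). For Ndufa4 (ENSMUSG00000029632, chr6:11900292-11907497, minus strand) the means were 917 in KO and 1294 in WT, and the authors' deposited table gave -0.50 ± 0.22 (adjusted p = 0.278). The intervals of these 3 lie below 0, and each covers -0.25, the median of abundant genes.

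Other core subunits of complex I, which carry its redox centres or bind ubiquinone, lay closer to that median. Ndufs8 stood at -0.40 ± 0.25, Ndufs3 at -0.27 ± 0.22, Ndufs7 at -0.26 ± 0.24, Ndufv2 at -0.17 ± 0.22 and Ndufs1 at -0.13 ± 0.23 by the authors' deposited table, at adjusted p values from 0.489 to 0.848. Ndufs1, the largest subunit, had 889 normalized counts in KO and 975 in WT. By module, the NADH-binding N module had a median of -0.268 over 11 genes, the quinone-binding Q module -0.263 over 6 and the proton-pumping P module -0.227 over 19. Ndufa13, an accessory subunit of the membrane arm, stood at -0.25 ± 0.20 by the authors' deposited table, but 30% of its exonic length overlaps Tssk6 on the other strand, and reads of both genes cannot be told apart without strand. The same holds for Ndufb6, of which 39% overlaps Smim27. Several subunit genes have processed pseudogenes, and how shared reads were counted is not known here. Ndufb2, named after its value was seen, was positive at 0.51 ± 0.57, with 104 normalized counts in KO and 72.8 in WT (adjusted p = 0.743 by the authors' deposited table).

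Complex II varied least, with all 4 log2 values between -0.30 and -0.18. Sdha (ENSMUSG00000021577, chr13:74322254-74350280, minus strand) had 4833 normalized counts in KO and 5675 in WT, and its fold change was -0.23 ± 0.16 (95% interval -0.54 to 0.08, adjusted p = 0.54 by the authors' deposited table). Sdhb stood at -0.18 ± 0.19, Sdhc at -0.30 ± 0.24 and Sdhd at -0.23 ± 0.20 by the authors' deposited table. None of the 4 passed an unadjusted p of 0.05, and the lowest end of their intervals was -0.76, for Sdhc.

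In complex III, 7 of 8 genes were negative, with a median of -0.228. Uqcrc1 had 1779 normalized counts in KO and 2083 in WT, at -0.23 ± 0.19, and Uqcrfs1 had 1472 in KO and 1682 in WT, at -0.19 ± 0.19 by the authors' deposited table. Uqcr10, the smallest p of the complex, stood at -0.36 ± 0.25, and Uqcrc2, Uqcrh and Uqcr11 at -0.25 ± 0.20, -0.24 ± 0.20 and -0.23 ± 0.26 by the authors' deposited table. Uqcrq, an accessory subunit (ENSMUSG00000044894, chr11:53427922-53430831, minus strand), was the exception. It had 872 normalized counts in KO and 757 in WT, at 0.20 ± 0.24 (95% interval -0.26 to 0.67, adjusted p = 0.759 by the authors' deposited table), and was named after its value was seen. Its interval overlaps those of the other 7.

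Complex IV holds the common subunits and the tissue isoforms. Cox4i1, the ubiquitous form of subunit 4, had 2949 normalized counts in KO and 3347 in WT, at -0.18 ± 0.17 (adjusted p = 0.688 by the authors' deposited table). Cox5a and Cox5b, which surround the catalytic core, stood at -0.26 ± 0.33 and -0.07 ± 0.20 by the authors' deposited table. With Ndufa4 left in complex I, the smallest p of complex IV was that of Cox6c. It had 1932 normalized counts in KO and 2432 in WT and a fold change of -0.33 ± 0.19 (adjusted p = 0.45 by the authors' deposited table). Cox7b, Cox6a1, Cox6b1, Cox7a2 and Cox8a lay from -0.33 to -0.20 by the authors' deposited table, and none passed an unadjusted p of 0.05. About 9.94% of the exonic length of Cox4i1 overlaps Emc8 on the other strand.

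The isoforms that replace common subunits in heart, skeletal muscle, lung or testis were near the lower end of detection. Per kb, Cox4i1 was 42.3 times as abundant as Cox4i2, the form of subunit 4 known from lung, and Ndufa4 35.6 times as abundant as Ndufa4l2, a hypoxia-responsive paralogue. Cox6b1 exceeded Cox6b2, a testis form, 164-fold per kb. Per length of the longest coding transcript these 3 ratios were 79.7, 68.8 and 99.4. The muscle forms Cox6a2, Cox7a1 and Cox8b had baseMean values of 4.26, 6.55 and 3.22, and Cox7b2 and Cox8c, known from testis, 4.07 and 1.82. These 5 have no adjusted p and their fold changes are not given. Cox4i2 (ENSMUSG00000009876, chr2:152754173-152765037, plus strand) had 53.2 normalized counts in KO and 22.4 in WT, at 1.25 ± 0.90 (95% interval -0.52 to 3.01, adjusted p = 0.57 by the authors' deposited table). Ndufa4l2 had 32.0 in KO and 17.2 in WT, at 0.89 ± 1.03 (adjusted p = 0.755), and Cox6b2 14.0 in KO and 21.7 in WT, at -0.63 ± 1.25 (adjusted p = 0.871), by the authors' deposited table. Genes with a baseMean under 50 had a median of 1.41 and were negative in 14.8% of cases, so the positive values of Cox4i2 and Ndufa4l2 share the sign of most genes of that abundance.

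Transcripts of muscle and other lung cells were present beside these isoforms. Striated muscle markers summed to 105 normalized counts in KO and 41.6 in WT over 6 genes, of which 3 have an adjusted p, and Ckm and Tnni3 were near 0 with a baseMean of 3.59 and 2.69. Smooth muscle markers summed to 401 in KO and 290 in WT over 3 genes, and fibroblast markers to 3875 in KO and 2109 in WT over 4. Endothelial markers summed to 2334 in KO and 1818 in WT over 4 genes, and lung epithelial markers to 10603 in KO and 6140 in WT over 5. Macrophage markers summed to 9861 in KO and 8783 in WT over 5 genes, and B cell markers to 190 in KO and 104 in WT over 4. Striated muscle markers and most B cell markers had a baseMean under 50, where 14.8% of all tested genes were negative. Removing the abundance trend took the median log2 value of tested striated muscle markers from 1.374 to 0.311. That of B cell markers went from 1.542 to 0.642. Single genes led some of the marker sums, with 9431 in KO and 8532 in WT for the macrophage marker Lyz2. Sftpc and Col1a1, the largest parts of the epithelial and fibroblast sums, had SEs of 1.44 and 1.31 on the log2 scale. T cell markers summed to 3323 in KO and 4883 in WT over 7 genes, mostly from Trbc1 (2476 in KO, 3401 in WT) and Cd3g (654 in KO, 1271 in WT). Of the less abundant ones, Cd3e stood at -0.44 ± 0.71, Trac at -0.26 ± 0.56 and Cd3d at -0.02 ± 1.15. Their baseMean values were 51.8, 114 and 18.1, against 2938 for Trbc1 and 963 for Cd3g. Cd4 and Cd8a were positive, at a baseMean of 13.8 and 3.84. Which cells gave the Trbc1 and Cd3g transcripts was not tested. Only Cd3g was called lower, at -0.96 ± 0.24 (adjusted p = 0.0292 by the authors' deposited table). The call of Cd3g was lost when centred (adjusted p = 0.103) and with the abundance trend removed (adjusted p = 0.376). Their part in the isoform values was not tested. In such bulk RNA fewer cells of a type and less RNA per cell cannot be told apart.

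Complex V had the lowest median, -0.298, with 17 of 17 genes negative and 4 at an unadjusted p under 0.05. Atp5b (ENSMUSG00000025393, chr10:128083273-128090391, plus strand) had 14331 normalized counts in KO and 18653 in WT, at -0.38 ± 0.14 (unadjusted p = 0.00852, adjusted p = 0.177 by the authors' deposited table). Atp5h, subunit d of the stator stalk (ENSMUSG00000034566, chr11:115415689-115419962, minus strand), whose promoter stretch is printed above, had 1911 in KO and 2501 in WT, at -0.39 ± 0.18 (adjusted p = 0.315 by the authors' deposited table). Atp5d, the delta subunit of the central stalk (ENSMUSG00000003072, chr10:80138632-80145818, plus strand), had 2321 in KO and 2967 in WT, at -0.35 ± 0.18, and Atp5a1 (ENSMUSG00000025428, chr18:77773729-77782869, plus strand) 6871 in KO and 8537 in WT, at -0.31 ± 0.15 by the authors' deposited table, at adjusted p values of 0.357 and 0.334. The gamma subunit Atp5c1 stood at -0.33 ± 0.17 and Atp5o, which joins the stator to the catalytic head, at -0.26 ± 0.23 by the authors' deposited table. The 3 c subunit genes lay close together, Atp5g1 at -0.29 ± 0.21, Atp5g2 at -0.24 ± 0.21 and Atp5g3 at -0.30 ± 0.20 by the authors' deposited table. Atp5s, the least abundant gene of the complex, stood at -0.09 ± 0.52.

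After centring on abundant genes the median of complex V was -0.047, and with the abundance trend removed it was -0.052. The log2 values of its 17 genes had an SD of 0.080 among themselves, and these genes share the same libraries. Among complex V genes with a baseMean of at least 1000, 4 of 14 (28.6%) had an unadjusted p under 0.05 as lower, against 21.6% of all tested genes in that range. The corresponding counts were 2 of 9 in complex I and 0 in complexes II, III and IV, and 6 of 40 (15%) over all complexes. Ndufa4 is among those lower in complex I, where its name places it, and would otherwise count for complex IV. After centring, 12 of 17 complex V genes were negative, against 18 of 38 in complex I, 1 of 4 in complex II, 1 of 8 in complex III and 6 of 13 in complex IV. With the abundance trend removed, 15 of 17 complex V genes were negative, against 26 of 38 in complex I, 1 of 4 in complex II, 4 of 8 in complex III and 6 of 13 in complex IV. After either step no gene of any complex had an unadjusted p under 0.05, and no test of a difference between complexes was made. As a share of the genotype's summed means, complex V made up 0.343% in KO and 0.383% in WT, and all 85 genes 0.827% in KO and 0.887% in WT. No error can be given for these shares.

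Related mitochondrial genes did not pass the test either. In 10 lists of assembly factors, electron carriers, mitochondrially encoded genes, tricarboxylic acid (TCA) cycle enzymes, mitochondrial ribosomal proteins and biogenesis regulators, 0 of 181 tested genes passed an adjusted p of 0.05 by the authors' deposited table, with 7 lower and 1 higher at an unadjusted p under 0.05. At an adjusted p under 0.05, 0.453% of all tested genes were called higher and 0.099% lower, so 0 of 181 is near that share. The 7 lower make 3.87% of the 181, against 3.95% of all tested genes, and the background of higher genes was 9.62%. The 14 TCA cycle genes were all negative, with the lowest median of these lists, -0.334. Cs, citrate synthase, stood at -0.47 ± 0.18, Mdh2, malate dehydrogenase, at -0.41 ± 0.18 and Ogdh, of the oxoglutarate dehydrogenase complex, at -0.35 ± 0.17 by the authors' deposited table, at adjusted p values of 0.181, 0.245 and 0.336. The 76 mitochondrial ribosomal proteins had a median of -0.197 and 0 genes at an unadjusted p under 0.05 in either direction. Cyc1, the cytochrome c1 of complex III, had 1066 normalized counts in KO and 1418 in WT, at -0.41 ± 0.20 (adjusted p = 0.34), and Cycs, cytochrome c, 1691 in KO and 1723 in WT, at -0.03 ± 0.18 by the authors' deposited table.

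Assembly factors of complex I had a median of -0.297 over 15 genes, of complex IV -0.213 over 18 and of complex V -0.254 over 4. Those of complex II, at -0.022 over 4, and of complex III, at -0.006 over 6, lay nearer 0. Assembly factors of every complex had a lower median baseMean, not divided by length, than its subunits. These medians were 206, 168, 219, 180 and 216 for complexes I to V. Coa5, a complex IV assembly factor, had a baseMean of 1799, above the median of 1430.5 in complex IV. SEs of assembly factors were often wide. That of Bcs1l, which inserts the Rieske protein, was 0.49 at a log2 value of 0.22 by the authors' deposited table. Coa7, a complex IV assembly factor, stood at 0.85 ± 0.55 (adjusted p = 0.507) by the authors' deposited table.

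The 13 mitochondrially encoded protein genes, which supply the core of complexes I, III, IV and V, had a median of -0.066 over the 12 tested, against -0.248 for the nuclear genes. Their summed means were 119670 normalized counts in KO and 135016 in WT. As a share of the genotype's summed means over all genes, they made up 0.981% in KO and 0.982% in WT. mt-Co1 had 30203 in KO and 41063 in WT, at -0.44 ± 0.18 (adjusted p = 0.23), mt-Cytb 25496 in KO and 29934 in WT, at -0.23 ± 0.13 (adjusted p = 0.442), and mt-Nd1 28731 in KO and 28214 in WT, at 0.03 ± 0.15 by the authors' deposited table (adjusted p = 0.963). mt-Co2, mt-Co3 and mt-Atp6, genes of the same polycistronic transcript, had a baseMean of only 131, 200 and 199. Near-identical nuclear copies of mitochondrial DNA exist in the mouse genome, and how reads shared with them were counted is not given in the sources used here, so levels of these genes are uncertain. The difference between mitochondrial and nuclear medians was not tested.

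Regulators of mitochondrial biogenesis did not pass either. Nrf1, whose word is shown above, stood at -0.18 ± 0.23 with 804 normalized counts in KO and 910 in WT, Gabpa at -0.15 ± 0.22 and Yy1 at -0.05 ± 0.31 by the authors' deposited table, at adjusted p values from 0.789 to 0.967. Polg, the mitochondrial DNA polymerase, had the smallest p among them, at -0.51 ± 0.20 (adjusted p = 0.184 by the authors' deposited table). Ppargc1a, a coactivator of NRF1 and a main driver of mitochondrial biogenesis, was the 1 gene of the 10 lists that was higher at an unadjusted p under 0.05. It had 73.7 normalized counts in KO and 16.1 in WT, at 2.20 ± 0.95 (95% interval 0.32 to 4.07, adjusted p = 0.259 by the authors' deposited table), at a baseMean of 44.9 where most genes were positive. Its relatives Ppargc1b and Pprc1 stood at -0.39 ± 0.42 and -0.37 ± 0.25 by the authors' deposited table. Nnt, which makes mitochondrial NADPH and is outside these lists, fell by 0.89 ± 0.23 on the log2 scale, with an adjusted p of 0.0345 by the authors' deposited table. The call of Nnt was lost when centred (log2 -0.63, adjusted p = 0.124), with the abundance trend removed (-0.68, adjusted p = 0.419) and without the filter on low counts (-0.89, adjusted p = 0.0694). It held with a baseMean of at least 50 (adjusted p = 0.0413) and with protein-coding genes alone (adjusted p = 0.0411).

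**Figure D4:**
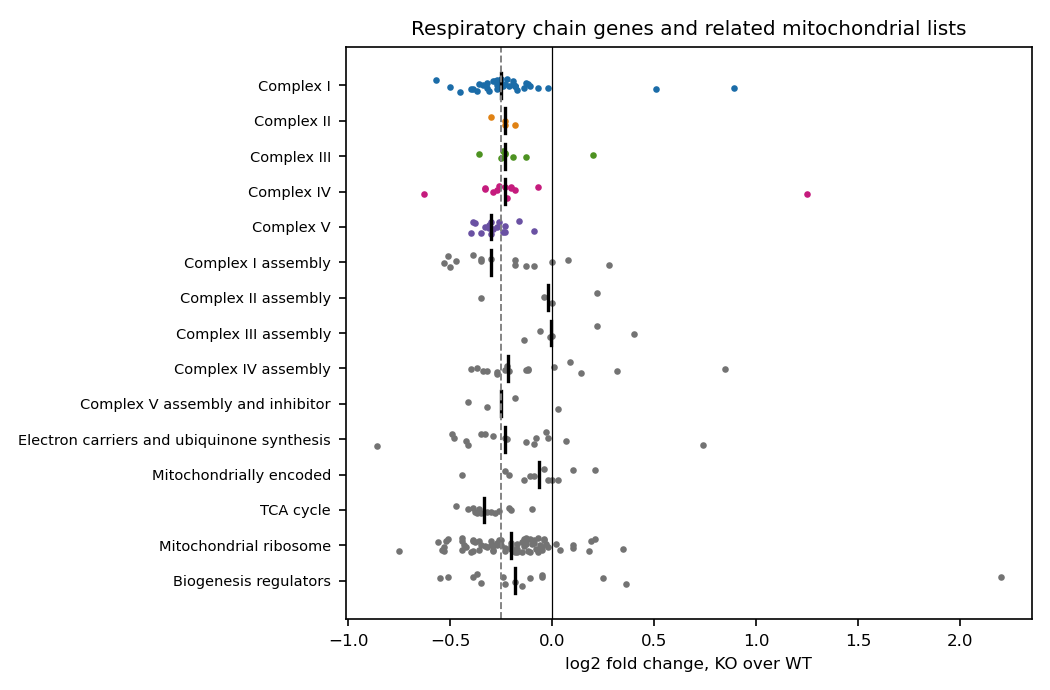
Log2 fold change of KO over WT for each tested gene of complexes I to V (coloured) and of 10 related mitochondrial lists (grey), with a black bar at each median. The solid line marks 0, the dashed line -0.25 as the median of abundant genes, and the point at 2.20 is Ppargc1a.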

How the data were processed

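RNA was measured in 2 KO and 2 WT pools of lung ILC2s, as SMART-Seq HT cDNA and TruePrep libraries per the labels' protocols. Per the submitters' processing notes, HISAT2, Cufflinks and mm10 were used, in roles not stated. The counting tool, the annotation and any filter: not given in the sources used here. Per the file headers, the authors deposited baseMean (a signal, the mean normalized count), a log2 fold change with its SE, also log2, a score (the statistic of the test) and the p-value before and after adjustment, under the headings of a DESeq2 results table. The statistic equals the fold change over its SE within 5.35e-08, and Benjamini-Hochberg adjustment over the 19193 genes with an adjusted p differs from the deposited value by at most 3.96e-05. The sign was turned so that positive means higher in KO. The planned refit was not possible, because the 8 columns of values per library match no sample label and were not used, so the authors' two-sided test stands. p-values rest on the authors' SEs, with 2 pools per genotype. How the spread between pools was estimated for each gene is not given in the sources used here.

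Genotype means, 95% intervals, centring and an abundance trend (running median over neighbouring genes) were computed with pandas 2.3.3, numpy 2.4.6 and scipy 1.17.1. Recomputed adjustment was tested on simulated data. Lengths and positions came from GENCODE M21 (mm10), where all 85 identifiers had a record. Promoter stretches on chromosome 18 are not shown. An exon of another gene overlaps 30 of the 85 genes. The genes and lists were chosen with earlier results of these data known. Named genes were, in each complex, the 4 with the smallest p, the 2 most and 1 least abundant, the core subunits and tissue isoforms, and Nrp1 and Nnt. A gene that this rule takes is not reported here. Ndufb2, Uqcrq and the genes of related lists were named after their values were seen, as were genes given for level alone. Of the list symbols, 3 were matched through other names and Ndufb1, Sco2 and Pet117 were not analysed here.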

Additional observations from a re-analysis of the deposited data

How the results depend on the processing

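No paired analysis was possible because the columns of values per library match no sample label. For the same reason fits without each replicate and refits with other tools were not run. Counts of respiratory chain genes called higher and lower, and of genes called in the related lists, stayed at 0 without a filter, with a baseMean of at least 50, with protein-coding genes alone, at an adjusted p under 0.1, when centred on abundant genes and with the abundance trend removed. The 7 genes lower at an unadjusted p under 0.05 became 0 when centred and 0 with the trend removed. Both settings subtract a value near -0.25 from abundant genes by construction. When centred, medians of complexes I to V were 0.002, 0.022, 0.024, 0.025 and -0.047, that of mitochondrially encoded genes 0.186 and that of TCA cycle genes -0.083. With the trend removed, complexes I to V stood at -0.041, 0.022, 0.014, 0.005 and -0.052. TCA cycle genes were then at -0.110 and mitochondrially encoded genes at -0.008. Lower than TCA cycle genes in that setting were assembly factors of complex I (-0.236) and complex V (-0.167) and electron carriers (-0.152). The other related lists lay above -0.110. Ranked by median level, complexes II, III and V moved to 1, 4 and 3 without division by length, and to 4, 3 and 1 with the longest coding transcript, a setting chosen after seeing the data. Centring turned 17 named genes positive: Ndufa13 (0.00), Ndufs1 (0.12), Ndufv2 (0.09), Sdha (0.02), Sdhb (0.07), Sdhd (0.02), Uqcr11 (0.02), Uqcrc1 (0.02), Uqcrc2 (0.00), Uqcrfs1 (0.06), Uqcrh (0.01), Cox4i1 (0.07), Cox5b (0.19), Cox7a2 (0.05), Cox8a (0.05), Atp5g2 (0.01) and Atp5s (0.16). Trend removal turned 12: Ndufa4l2 (-0.10), Ndufs1 (0.09), Ndufv2 (0.07), Sdha (0.03), Sdhb (0.06), Sdhd (0.01), Uqcrc1 (0.03), Uqcrfs1 (0.05), Cox4i1 (0.08), Cox5b (0.18), Cox7a2 (0.04) and Cox8a (0.05). Beyond the subtraction the cause was not tested.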
